A study of Homo sapiens with 12 samples.

Results

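The members were 48 genes of DNA replication and of its control by E2F transcription factors, taken by symbol from a table of 24641 gene symbols. All 48 were found there once, and all 48 had enough reads to be among the 15648 genes tested. The cells were MDA-MB-231, an established human breast cancer line that lacks oestrogen receptor. They carried a short hairpin RNA against RIPOR3 (shRIPOR3, labelled as RIPOR3 knockdown) or a control hairpin (shControl, labelled WT), and each line was kept in hypoxia, at 1% O2 for 24 hours, or in normoxia. The 4 groups were hypoxic shRIPOR3, normoxic shRIPOR3, hypoxic shControl and normoxic shControl, with 3 mRNA sequencing libraries each. By its title and design text, the study addressed RIPOR3 in tumour growth and spread and the effect of low oxygen on its mRNA. Whether shRIPOR3 cells were 1 clone or a pool is not stated. The labels of all shRIPOR3 libraries carry the same hairpin name, which points to 1 hairpin, and its sequence is not stated. All comparisons of the hairpins and the interaction thus rest on that hairpin, and its effects on genes other than RIPOR3 were not tested.

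Replication starts from origins that the origin recognition complex marks in G1, where CDC6 and CDT1 load the ring-shaped MCM helicase. In S phase CDC45 and the GINS complex turn that helicase on, primase and the polymerases copy the strands, and a sliding clamp with its loader keeps the polymerases in place. Most of these genes are targets of E2F factors, which cyclin E with its kinase helps to set free from the retinoblastoma protein, so their mRNA levels are widely read together as a mark of entry into S phase. In bulk RNA, fewer cells in S phase and less of an mRNA per cell cannot be told apart.

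RIPOR3 itself was scarce: the hypoxic shRIPOR3 libraries held 9, 3 and 11 counts and the hypoxic shControl libraries 33, 18 and 30. The normoxic shRIPOR3 libraries held 0, 0 and 1 counts and the normoxic shControl libraries 7, 3 and 7. The ranges of the hairpins did not overlap under either oxygen level. Library totals were 31781324 to 52526813 counts in hypoxia and 14750734 to 30032858 in normoxia, so depth moved with oxygen. All 4 mesenchymal markers (VIM, CD44, AXL and SPARC) averaged at least 75.2 CPM in each group, and the 2 blood markers measured (PTPRC and CD3E) stayed at or below 0.102 CPM. Markers of other cell types moved with the groups. The summed endothelial markers (PECAM1 and CDH5) were at 3.72 CPM in hypoxic shRIPOR3 against 13.1 CPM in hypoxic shControl cells, and at 2.55 CPM in normoxic shRIPOR3 against 7.55 CPM in normoxic shControl cells. The summed fibroblast markers were at 3.36 against 7.15 CPM in hypoxia and 2.07 against 3.54 CPM in normoxia in shRIPOR3 against shControl, nearly all of it PDGFRB, with DCN and LUM under 0.1 CPM in each group. Of the 6 luminal and epithelial markers, whose sum was 73.9 to 95.2 CPM, KRT19 alone averaged 65.0 to 86.2 CPM by group and the other 5, ESR1 and PGR lowest, stayed at or below 7.26 CPM. The part of these markers in the results was not tested. No label says whether the replicates were grown as separate cultures, and the p-values therefore reflect the spread among these libraries alone, which could be technical.

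Together the 48 members held 99360 to 337139 counts per library. On the TMM-normalised scale (CPM below: counts relative to the library total after edgeR's scaling factor), their sum was 6132 ± 37.2 in hypoxic and 6712 ± 115 in normoxic shRIPOR3 libraries, and 6028 ± 83.9 in hypoxic and 7110 ± 124 in normoxic shControl libraries (SD, n = 3 each). As a plain share of the library total they took 0.632 to 0.642% in hypoxic and 0.635 to 0.646% in normoxic shRIPOR3 libraries, which overlap. In shControl the shares were 0.623 to 0.630% in hypoxia and 0.674 to 0.693% in normoxia, which do not. Per kilobase of exon, averaged over the 12 libraries, MCM3 stood highest at 185 CPM per kb, followed by TYMS at 150, RRM1 at 136, FEN1 at 112 and MCM7 at 105. Other helicase subunits were lower on that scale, with MCM2 at 49.2, MCM4 at 38.4, MCM6 at 26.3 and MCM5 at 20.7 CPM per kb. Exon length here joins the exons of all annotated transcripts of a gene, 7338 bp in MCM5 and 3650 bp in MCM3. The order on this scale therefore depends on the annotation too. POLA2, at 0.608 CPM per kb, E2F2, at 1.31, and PRIM1, at 3.55, were among the scarcest and were the 3 members below 10 CPM.

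The promoters of 6 members are shown because they pair genes that carry the same E2F word and moved differently in hypoxia. They come from RefSeq (GRCh38.p14) and run from 250 bases before to 50 bases after the first listed start site of each gene, 5′ to 3′ on the gene's strand. Capitals mark TTTGGCGC, TTTCGCGC, TTTCCCGC or TTTGCCGC on either strand, words of the E2F consensus. UHRF1 has several start sites in the table.
POLE (chr12:132687293-132687592, minus strand): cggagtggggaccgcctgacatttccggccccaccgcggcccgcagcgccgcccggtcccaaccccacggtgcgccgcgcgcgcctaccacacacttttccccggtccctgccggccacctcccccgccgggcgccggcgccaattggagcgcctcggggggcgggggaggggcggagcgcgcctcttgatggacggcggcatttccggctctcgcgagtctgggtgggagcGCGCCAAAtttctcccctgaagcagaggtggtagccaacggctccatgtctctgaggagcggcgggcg
POLE2 (chr14:49688165-49688464, minus strand): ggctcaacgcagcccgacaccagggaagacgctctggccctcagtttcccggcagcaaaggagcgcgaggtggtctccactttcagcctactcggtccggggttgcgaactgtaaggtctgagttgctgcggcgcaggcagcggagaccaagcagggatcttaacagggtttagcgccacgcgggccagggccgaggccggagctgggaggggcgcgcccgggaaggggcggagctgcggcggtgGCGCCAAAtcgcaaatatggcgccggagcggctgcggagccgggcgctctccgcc
UHRF1 (chr19:4909251-4909550, plus strand): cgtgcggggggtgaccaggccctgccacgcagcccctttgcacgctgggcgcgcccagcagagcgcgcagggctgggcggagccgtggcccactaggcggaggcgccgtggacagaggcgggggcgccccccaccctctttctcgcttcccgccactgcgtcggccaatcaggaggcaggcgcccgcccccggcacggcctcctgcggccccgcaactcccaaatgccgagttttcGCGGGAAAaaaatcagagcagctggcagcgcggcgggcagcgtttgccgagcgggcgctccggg
GINS2 (chr16:85688905-85689204, minus strand): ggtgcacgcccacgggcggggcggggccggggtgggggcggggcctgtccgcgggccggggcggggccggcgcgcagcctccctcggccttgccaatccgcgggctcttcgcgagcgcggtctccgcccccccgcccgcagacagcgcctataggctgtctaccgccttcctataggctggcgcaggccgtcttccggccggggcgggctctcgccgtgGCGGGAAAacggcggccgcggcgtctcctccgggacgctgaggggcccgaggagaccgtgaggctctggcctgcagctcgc
MCM2 (chr3:127598161-127598460, plus strand): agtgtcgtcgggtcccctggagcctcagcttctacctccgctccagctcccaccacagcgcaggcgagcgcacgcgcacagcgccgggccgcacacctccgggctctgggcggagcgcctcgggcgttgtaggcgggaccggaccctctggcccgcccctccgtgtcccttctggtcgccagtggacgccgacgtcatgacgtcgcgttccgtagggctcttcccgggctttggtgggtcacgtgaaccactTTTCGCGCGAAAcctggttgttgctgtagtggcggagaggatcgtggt
MCM6 (chr2:135876394-135876693, minus strand): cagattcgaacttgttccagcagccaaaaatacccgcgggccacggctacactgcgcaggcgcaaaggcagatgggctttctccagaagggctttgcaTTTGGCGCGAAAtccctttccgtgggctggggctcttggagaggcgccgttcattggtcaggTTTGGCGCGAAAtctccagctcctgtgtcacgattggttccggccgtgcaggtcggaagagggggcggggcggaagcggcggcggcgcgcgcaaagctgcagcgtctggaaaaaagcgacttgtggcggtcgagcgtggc

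POLE and POLE2 share TTTGGCGC, read on the opposite strand, with its first base at -18 and -5 from the start site. UHRF1 and GINS2 share TTTCCCGC on the opposite strand at -14 and -31. In MCM2 and MCM6 the words of both strands overlap: MCM2 holds 1 such pair just past its start site, and MCM6 holds 2 pairs, at -152 and -90, each with TTTGGCGC on the gene's own strand. Of the 40 members with a promoter in the table, 20 (50%) held at least 1 of the 4 words, against 5.37% of the 10415 promoters of tested genes and 3.31% of all 35116 promoters of this length. The 27 words found in members lay between -187 and 8, and 17 members had a word between -60 and 20. In hypoxic against normoxic shControl cells the members with a word had a median log2 change of -0.28 and those without one -0.35. The same medians in shRIPOR3 cells were -0.15 with a word and -0.22 without. A match describes these letters only and is not evidence that a factor bound there.

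The first question was what hypoxia did to these genes. Most of the replication machinery was lower in hypoxia in both lines, while a small set led by UHRF1, POLE, LIG1, RRM2 and E2F8 was higher. In shRIPOR3 cells 11 members rose and 32 fell (edgeR's quasi-likelihood test, Benjamini-Hochberg adjusted p below 0.05 over all genes tested), against 25.2% and 30.4% of all tested genes (55.6% in either direction). In shControl cells 7 rose and 37 fell, against 32.4% and 32.4% of all tested genes (64.8% in either direction). The median log2 fold change of the members was -0.16 in shRIPOR3 and -0.31 in shControl, beside -0.01 and 0.02 for all tested genes in the same comparisons. Most steps were small: with a log2 change of at least 0.5 also asked for, 2 members rose and 2 fell in shRIPOR3 (11.7% and 5.99% of all tested genes, 17.7% together), and 2 rose and 11 fell in shControl (19.5% and 11.2%, 30.7% together).

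**Figure D1:**
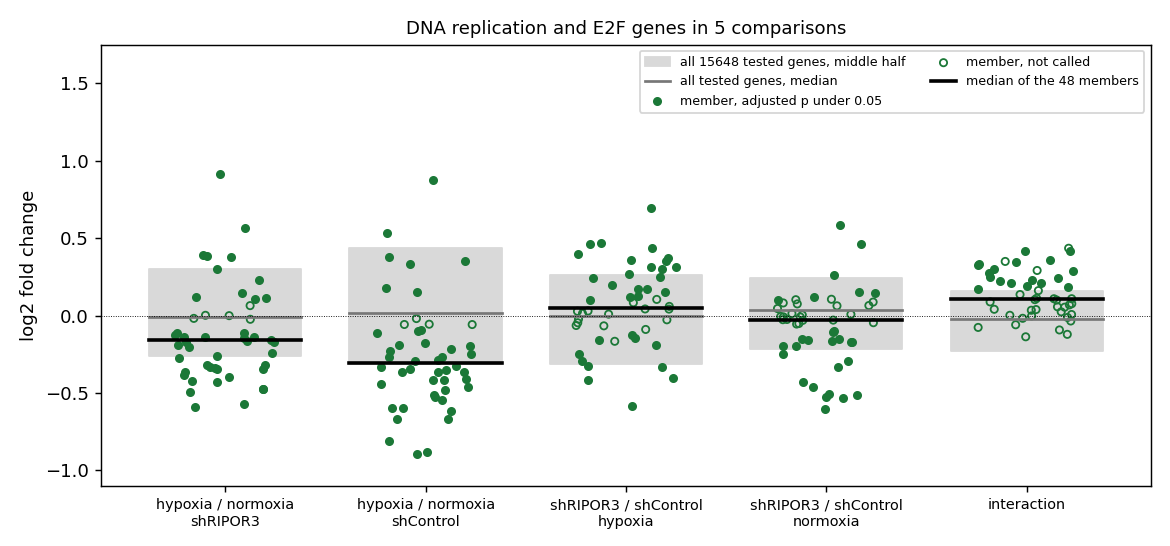
Log2 fold change (vertical axis) of the 48 members, as points, in the 5 comparisons on the horizontal axis; filled points passed an adjusted p of 0.05, grey boxes span the middle 50% of all 15648 tested genes, and lines mark medians. The member median lies at -0.31 for hypoxia in shControl, below the all-gene median of 0.02, and at 0.11 in the interaction, above the all-gene median of -0.02.

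The helicase subunits did not move as a unit. In shControl 5 of 6 fell and in shRIPOR3 4 of 6 fell. MCM6 (chromosome 2, 135839626 to 135876426, minus strand) fell in both lines. Its level was 88.7, 87.5 and 84.8 CPM in hypoxic against 122, 122 and 122 CPM in normoxic shRIPOR3 libraries, a log2 fold change of -0.49 with a standard error of 0.0408, written below as -0.49 ± 0.0408 (adjusted p = 3.38e-10). In shControl it was 80.6, 88.4 and 90.6 CPM in hypoxia against 140, 134 and 138 CPM in normoxia (-0.67 ± 0.041, adjusted p = 7.33e-13). Every hypoxic library was below every normoxic one. MCM2 (chromosome 3, 127598223 to 127622436, plus strand) went the other way in shRIPOR3 cells, with 283, 280 and 286 CPM in hypoxia against 221, 231 and 237 CPM in normoxia (0.30 ± 0.0423, adjusted p = 1.59e-06). In shControl its hypoxic libraries, at 219, 211 and 235 CPM, overlapped the normoxic ones at 239, 219 and 232 CPM (-0.06, adjusted p = 0.24). MCM5 (chromosome 22, 35400063 to 35425430, plus strand) did not pass the test in shRIPOR3, with 150, 141 and 150 CPM in hypoxia and 141, 149 and 150 CPM in normoxia. It fell in shControl, to 137, 129 and 138 CPM in hypoxia against 178, 176 and 186 CPM in normoxia, a log2 fold change of -0.42. MCM3, MCM4 and MCM7 fell in both lines, by 0.13 to 0.16 on the log2 scale in shRIPOR3 and by 0.11 to 0.36 in shControl. On library totals without scaling factors MCM3, MCM4 and MCM7 lost their calls in shRIPOR3, and MCM4 also in shControl.

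Among the 10 genes of licensing and helicase activation, 2 rose and 6 fell in shRIPOR3 and 2 rose and 8 fell in shControl. GINS2 (chromosome 16, 85676198 to 85690073, minus strand), a subunit of the GINS complex, had the lowest log2 fold change of all members in shControl. Its hypoxic shRIPOR3 libraries had 25, 23.8 and 24.8 CPM and the normoxic ones 32.5, 33.9 and 35.8 CPM, and the hypoxic shControl libraries 21.5, 18.6 and 19.2 CPM against 36.9, 36.3 and 37.0 CPM in normoxia. The groups were apart in both lines, with log2 fold changes of -0.48 in shRIPOR3 and -0.89 ± 0.0548 in shControl (adjusted p = 6.8e-13). Of the other subunits of this complex of 4, GINS3 also fell, by 0.19 in shRIPOR3 and 0.48 in shControl, whereas GINS1 rose in both lines (0.12 in shRIPOR3 and 0.18 ± 0.0453 in shControl) and GINS4 rose by 0.15 in each. The GINS3 call in shRIPOR3 held in 6 of 22 alternative settings. CDC6 (chromosome 17, 40287633 to 40304657, plus strand), which loads the helicase, had 227, 221 and 232 CPM in hypoxic against 283, 289 and 290 CPM in normoxic shRIPOR3 libraries. In shControl it had 231, 241 and 223 CPM in hypoxia against 306, 312 and 308 CPM in normoxia, and the groups did not overlap in either line (log2 fold changes -0.34 and -0.42). CDT1, its partner in loading, fell in shControl (-0.23) and was level in shRIPOR3 (-0.00, adjusted p = 0.991). MCM10, which helps to activate the helicase, fell by 0.35 ± 0.0342 in shRIPOR3 (adjusted p = 5.61e-09) and by 0.53 ± 0.0343 in shControl (adjusted p = 1.89e-12).

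The 2 subunits of DNA polymerase epsilon among the members moved apart. POLE (chromosome 12, 132623753 to 132687365, minus strand), the catalytic subunit of the leading-strand enzyme, had 86.1, 83.7 and 84.9 CPM in hypoxic against 55.2, 57.8 and 58.6 CPM in normoxic shRIPOR3 libraries, a log2 fold change of 0.57 ± 0.0386 (adjusted p = 1.13e-11). In shControl it had 114, 111 and 115 CPM in hypoxia against 87.4, 84.2 and 89.6 CPM in normoxia (0.38 ± 0.0369, adjusted p = 2.87e-09). Every hypoxic library stood above every normoxic one of its line. POLE2 (chromosome 14, 49643555 to 49688422, minus strand), its accessory subunit, fell to 21.2, 21.1 and 19.95 CPM in hypoxic shRIPOR3 libraries against 27.9, 28.9 and 29.5 CPM in normoxia, and to 16.3, 15.5 and 15.4 CPM in hypoxic shControl libraries against 26.8, 28.0 and 28.2 CPM. Its log2 fold changes were -0.48 and -0.81 ± 0.0523 (adjusted p = 1.7e-12 in shControl). PRIM2 (chromosome 6, 57314805 to 57646849, plus strand), the large subunit of primase, was among the strongest decreases, with 26.0, 26.8 and 26.1 CPM in hypoxic against 39.2, 39.7 and 40.1 CPM in normoxic shRIPOR3 libraries (-0.59 ± 0.0505, adjusted p = 4.83e-10). In shControl it had 18, 19.6 and 20.7 CPM in hypoxia against 37.6, 33.8 and 35.4 CPM in normoxia (-0.88 ± 0.0541, adjusted p = 6.62e-13), and no libraries overlapped. Over all 9 polymerase and primase genes, 3 rose and 6 fell in shRIPOR3 and 1 rose and 7 fell in shControl. POLD1, the catalytic subunit of polymerase delta, rose by 0.10 in shRIPOR3 and fell by 0.20 in shControl, the only member called in opposite directions in the 2 lines, and its call in shRIPOR3 held in 14 of 22 alternative settings.

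The clamp, its loader and the single-strand binding protein gave the most uniform answer: all 9 genes fell in both lines, with medians of -0.37 in shRIPOR3 and -0.36 in shControl, though RPA2 lost its call in shRIPOR3 on library totals without scaling factors and without normoxic shRIPOR3 replicate 3. PCNA (chromosome 20, 5114953 to 5126626, minus strand), the clamp, had 98.3, 94.8 and 89.9 CPM in hypoxic against 110, 121 and 122 CPM in normoxic shRIPOR3 libraries. In shControl it had 95.9, 94.9 and 96.7 CPM in hypoxia against 121, 119 and 121 CPM in normoxia. The log2 fold changes were -0.32 and -0.33, and groups were apart in both lines. The 5 loader subunits, RFC1 to RFC5, fell by 0.27 to 0.42 on the log2 scale in shRIPOR3, where RFC3 (-0.42 ± 0.0409, adjusted p = 4.48e-09) and RFC1 (-0.39 ± 0.0392, adjusted p = 9.27e-09) had the smallest p. In shControl they fell by 0.29 to 0.62. RPA1, the large subunit of the single-strand binding protein, fell by 0.43 in shRIPOR3 and 0.67 in shControl.

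The subunits of ribonucleotide reductase, the enzyme that makes deoxynucleotides, parted in hypoxia. RRM1 (chromosome 11, 4094707 to 4138876, plus strand), its large subunit, fell to 438, 439 and 430 CPM in hypoxic shRIPOR3 libraries against 631, 652 and 661 CPM in normoxia (-0.57 ± 0.038, adjusted p = 7.18e-12). In shControl it fell to 468, 473 and 487 CPM in hypoxia against 704, 757 and 699 CPM in normoxia (-0.60 ± 0.038, adjusted p = 1.36e-12). RRM2 (chromosome 2, 10120698 to 10131419, plus strand), the small subunit, rose in both lines. It had 309, 319 and 303 CPM in hypoxic against 260, 269 and 265 CPM in normoxic shRIPOR3 libraries (0.23 ± 0.0346, adjusted p = 3.95e-06). In shControl it had 319, 322 and 319 CPM in hypoxia against 254, 248 and 251 CPM in normoxia (0.35 ± 0.0347, adjusted p = 3.48e-09), so hypoxic and normoxic libraries did not overlap for either subunit. Thymidylate synthase (TYMS) fell by 0.12 in shRIPOR3 and 0.10 in shControl, and both values changed sign on library totals without scaling factors. Thymidine kinase (TK1) passed the threshold in neither line (-0.02 and -0.06). The ligase that joins Okazaki fragments, LIG1 (chromosome 19, 48115445 to 48170603, minus strand), rose to 148, 147 and 152 CPM in hypoxic shRIPOR3 libraries against 111, 116 and 115 CPM in normoxia (0.38 ± 0.0368, adjusted p = 3.61e-09). In shControl it rose to 195, 192 and 205 CPM in hypoxia against 156, 155 and 160 CPM (0.33 ± 0.0361, adjusted p = 1.93e-08). FEN1, the flap nuclease that acts just before it, fell by 0.12 in shRIPOR3 and 0.22 in shControl, with a change of sign in shRIPOR3 on library totals.

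UHRF1 (chromosome 19, 4903080 to 4962154, plus strand), which keeps DNA methylation in place behind the fork, had the largest increase of all 48 members in both lines. Its hypoxic shRIPOR3 libraries had 235, 236 and 239 CPM against 123, 126 and 128 CPM in normoxia, a 1.88-fold difference (log2 0.91 ± 0.0377, adjusted p = 1.5e-15). The hypoxic shControl libraries had 224, 213 and 224 CPM against 125, 115 and 120 CPM in normoxia, a 1.83-fold difference (0.87 ± 0.038, adjusted p = 1.24e-15). Of the subunits of chromatin assembly factor 1, CHAF1A rose in shRIPOR3 (0.12, adjusted p = 0.0163) and passed no threshold in shControl (-0.02), and CHAF1B fell by 0.14 and 0.19.

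E2F1 (chromosome 20, 33675683 to 33686404, minus strand), an activator of these genes, had 34.4, 35.4 and 37.6 CPM in hypoxic against 39.4, 41.2 and 40.2 CPM in normoxic shRIPOR3 libraries. In shControl it had 33.2, 31.6 and 35.1 CPM in hypoxia against 42.1, 37.4 and 40.5 CPM in normoxia. Hypoxic libraries were lower without overlap in both lines, with log2 fold changes of -0.17 and -0.27. E2F8, an atypical factor that represses E2F targets, rose in both, by 0.39 ± 0.0609 in shRIPOR3 (adjusted p = 5.93e-06) and 0.53 ± 0.0594 in shControl (adjusted p = 2.93e-08). E2F2, another activator, passed no threshold in shRIPOR3 (0.06) and fell in shControl (-0.29), and the difference between the lines did not pass either (adjusted p = 0.0565). The G1/S cyclins CCNE1 and CCNE2 fell slightly in both lines, by 0.14 and 0.17 in shRIPOR3 and 0.25 and 0.09 in shControl, though the CCNE2 call in shControl held in 6 of 22 alternative settings and its sign turned on library totals.

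**Figure D2:**
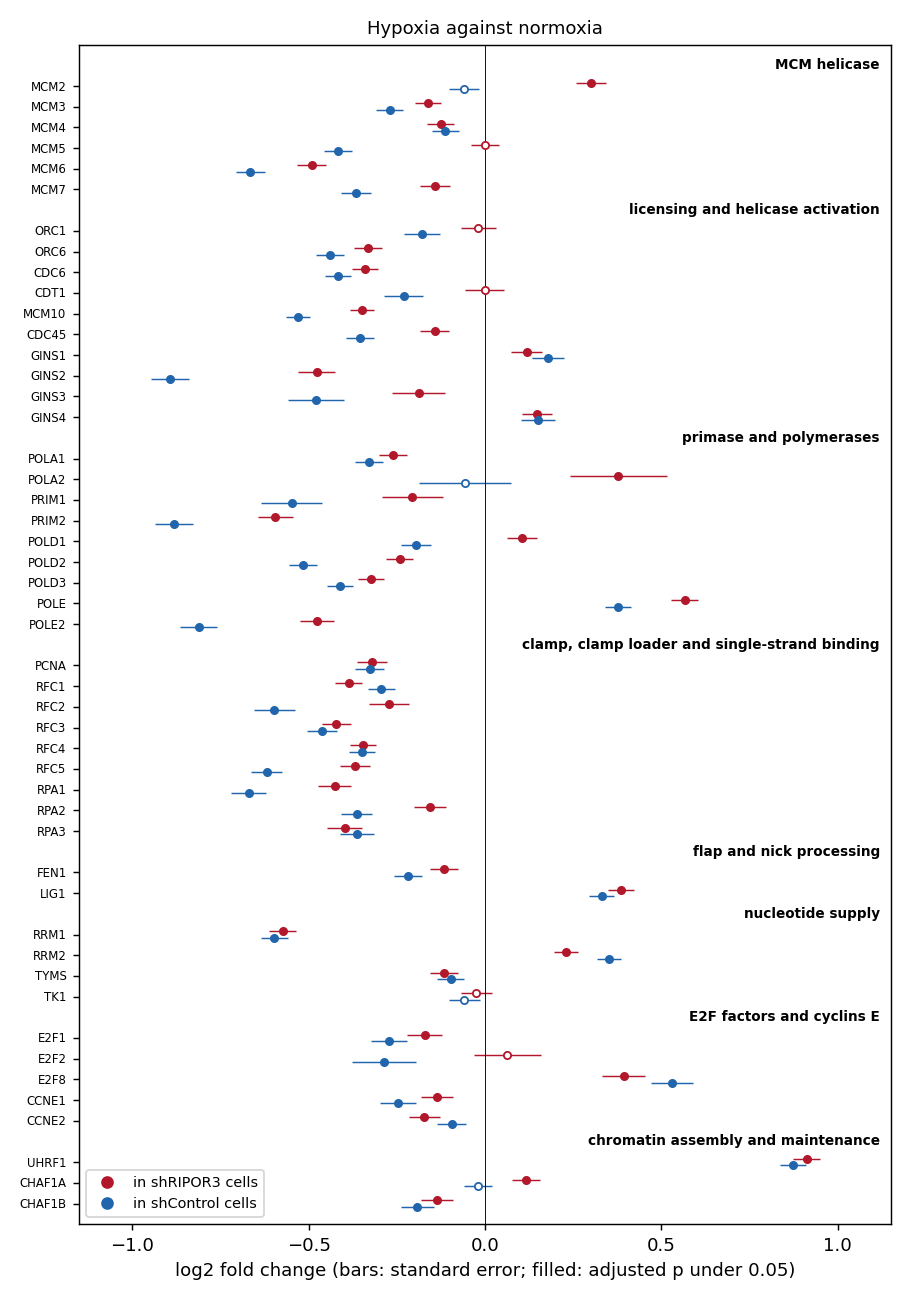
Log2 fold change of hypoxia against normoxia (horizontal axis) for each member, grouped by role, in shRIPOR3 (red) and shControl cells (blue); bars are standard errors and filled points passed an adjusted p of 0.05. All 9 genes of the clamp, loader and single-strand binding block lie left of 0 in both lines, and UHRF1 lies farthest right.

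**Figure D3:**
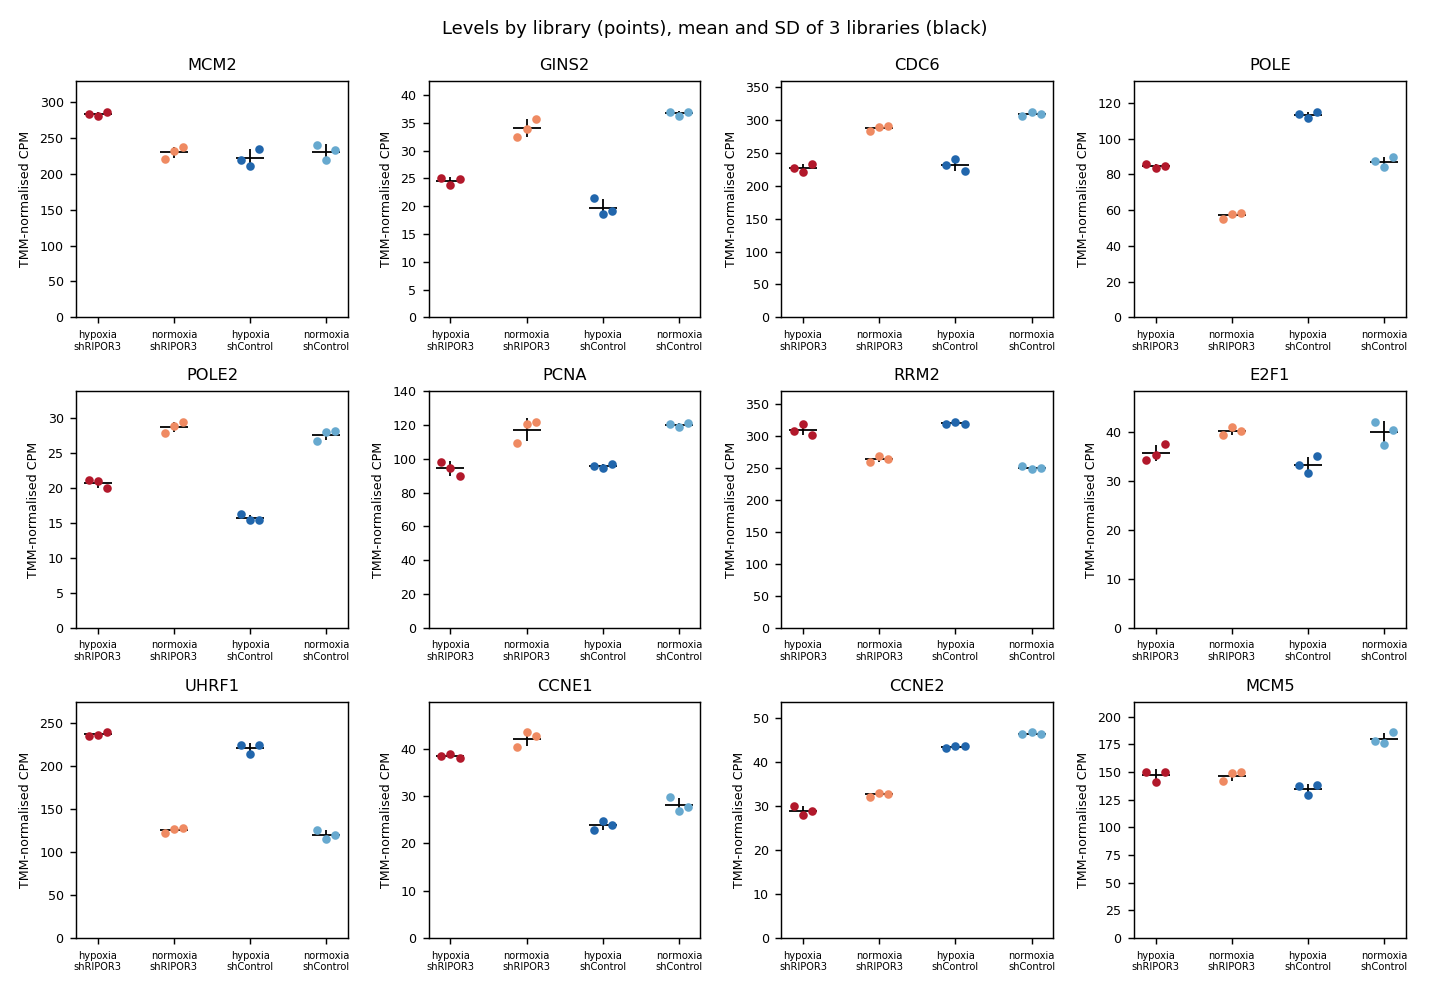
TMM-normalised CPM (vertical axes, from 0) of 12 members in the 12 libraries, with points for libraries and black marks for the mean and SD of 3. POLE and UHRF1 stand higher in hypoxia in both lines, whereas GINS2, POLE2 and PCNA stand lower.

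The 2 hypoxia comparisons use separate libraries. Of the 48 members 42 had the same sign in both, 40 were called in both, and 39 of those in the same direction. Of all 15648 tested genes 12716 had the same sign in both and 7246 were called in both, 191 of those in opposite directions. Across members the log2 fold changes had a Pearson r of 0.904, beside 0.753 across all tested genes. These are values across genes, which are not independent replicates. All hypoxic libraries were above all normoxic ones for 10 members in shRIPOR3 and 7 in shControl and below them for 30 and 35, while 61.2% and 67.2% of all tested genes were apart in one direction or the other.

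The scale and the size of the genes moved with these results. On library totals without scaling factors the median of all tested genes shifted to 0.11 in shRIPOR3 and 0.13 in shControl, and the higher share of all calls was 63.4% and 61.6%, beside 45.3% and 50.02% with factors. The member median less the all-gene median was -0.15 in shRIPOR3 and -0.33 in shControl, a difference that scaling factors hardly change by construction, since they shift all genes of a library alike. The count of members that fell was 19 in shRIPOR3 and 29 in shControl on library totals. There 8644 of all 15648 tested genes were called in shRIPOR3 and 10114 in shControl, with the higher shares of 63.4% and 61.6% given above. Abundant genes were lower in hypoxia in general: genes above 100 CPM had a median of -0.22 in shControl, beside -0.33 for the 25 members among them, and genes at 10 to 100 CPM had -0.07, beside -0.28 for 20 members. In shRIPOR3 genes above 100 CPM had a median of -0.18 and the members among them -0.14, and genes at 10 to 100 CPM had -0.06, beside -0.18 for 20 members. Genes with short transcripts were lower as well. Of the genes at 10 CPM or more in shControl, those with a longest transcript up to 2960 bp had a median of -0.32, beside -0.36 for the 19 members among them, and those above that and up to 4959 bp had -0.09, beside -0.19 for 26 members. In shRIPOR3 the members lay close to genes of like length: the shorter genes had a median of -0.24, beside -0.27 for the members, and the middle ones -0.06, beside -0.07. The content of G and C bases (GC) went with the change too. In shRIPOR3 genes up to 43.1% GC had a median of -0.22, beside -0.29 for 8 members. Those up to 52.0% had -0.08, beside -0.32 for 23, and those above 0.06, beside 0.00 for 17. In shControl the same medians were -0.18, -0.09 and -0.03, beside -0.37, -0.36 and -0.22 for members. The part of scale, abundance, length and GC content in the members' decrease was not tested.

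Some of the smaller calls of hypoxia against normoxia were lost when 1 library was left out. In shRIPOR3 this held for 14 members. The 12 libraries share the estimate of the spread, and the scaling factors were computed anew each time. Without hypoxic shControl replicate 2 or 3 the all-gene median in shRIPOR3 moved from -0.01 to 0.03. The member median moved from -0.16 to -0.12, and 24 and 26 members fell, in that order, in place of 32. Over all tested genes 8652 and 8695 were then called, 51.2% and 51.1% of them higher, beside 8704 and 45.3% with all libraries. The call of MCM4 ended without hypoxic shControl replicate 2, that of MCM7 without replicate 2 of either hypoxic group, and that of GINS4 without normoxic shRIPOR3 replicate 2. CHAF1A lost its call without hypoxic shRIPOR3 replicate 3 or normoxic shRIPOR3 replicate 1, and POLA2 without hypoxic shRIPOR3 replicate 1 or 3 or normoxic shRIPOR3 replicate 2. CHAF1B and CCNE1 lost theirs without normoxic shRIPOR3 replicate 3 or hypoxic shControl replicate 2 or 3, and CCNE1 also without normoxic shRIPOR3 replicate 2. GINS1, FEN1 and TYMS each lost theirs without any 1 of 4 libraries, GINS3 of 6, POLD1 of 7 and PRIM1 of 8. In shControl the call of MCM4 ended without normoxic shControl replicate 1, that of GINS4 without normoxic shControl replicate 3, and those of TYMS and CCNE2 without any 1 of 4 and 7 libraries.

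Of 65 other genes of replication and its control, listed apart from the members, 10 rose and 37 fell in hypoxic shRIPOR3 cells and 15 rose and 40 fell in hypoxic shControl cells, with medians of -0.22 and -0.21. The shares of all tested genes were 25.2% and 30.4% in shRIPOR3 and 32.4% and 32.4% in shControl. TICRR, which acts in origin firing, rose by 0.97 in shRIPOR3 and 1.20 in shControl, and E2F7, the close relative of E2F8, by 0.47 and 0.91. TIPIN, a fork protection factor, fell by 0.67 and 0.92. In shControl DSCC1, of an alternative clamp loader, fell by 0.81 and the deoxynucleotide hydrolase SAMHD1 by 0.68. In shRIPOR3 the CDT1 inhibitor GMNN fell by 0.50 and WDHD1 by 0.54, while E2F3 rose by 0.46 in shRIPOR3 and 0.43 in shControl.

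The second question was what the RIPOR3 hairpin did to these genes. The answer was mixed in direction. In either direction together 66.7% of the members were called in hypoxia and 54.2% in normoxia, close to the 61.9% and 45.7% of all tested genes. In hypoxia 21 members rose and 11 fell in shRIPOR3 against shControl cells, beside 30.7% and 31.2% of all tested genes, with a median log2 fold change of 0.05 against -0.00 for all. In normoxia 7 rose and 19 fell, beside 25.1% and 20.6%, with a median of -0.03 against 0.03. Only CCNE1 and CCNE2 passed with a log2 change of at least 0.5 in hypoxia, 1 in each direction (8.77% and 14.8% of all tested genes, 23.6% together). In normoxia CCNE1 did so upward (5.98%), and POLE, RPA2, CCNE2, POLA2 and E2F2 downward (7.62%), beside 13.6% of all tested genes in either direction.

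The cyclins E moved in opposite directions. CCNE1 (chromosome 19, 29811898 to 29824308, plus strand) had 38.4, 39.0 and 38.1 CPM in hypoxic shRIPOR3 libraries against 22.8, 24.7 and 23.8 CPM in hypoxic shControl libraries (log2 0.70 ± 0.0458, adjusted p = 3.43e-12). In normoxia it had 40.3, 43.4 and 42.7 CPM in shRIPOR3 against 29.7, 26.7 and 27.6 CPM in shControl (0.59 ± 0.0512, adjusted p = 1.65e-09). CCNE2 had 30.0, 27.9 and 28.9 CPM in hypoxic shRIPOR3 against 43.2, 43.6 and 43.6 CPM in hypoxic shControl libraries (-0.58 ± 0.0394, adjusted p = 5.23e-12). In normoxia it had 32.1, 32.9 and 32.8 CPM in shRIPOR3 against 46.3, 46.7 and 46.3 CPM in shControl (-0.51 ± 0.0446, adjusted p = 1.73e-09). No libraries of the 2 hairpins overlapped for either cyclin. INTS8 lies on the opposite strand over 37.0% of the CCNE2 exon bases, and its own log2 fold change for shRIPOR3 against shControl was 0.24 in hypoxia and -0.10 in normoxia. For hypoxia against normoxia INTS8 fell by 0.56 in shRIPOR3 and 0.89 in shControl, where CCNE2 fell by 0.17 and 0.09.

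Behind the cyclins, POLE and LIG1 were lower in shRIPOR3 at both oxygen levels, on the library values given above. POLE fell by 0.42 ± 0.0352 in hypoxia (adjusted p = 2.97e-10) and 0.61 ± 0.0402 in normoxia (adjusted p = 1.19e-11), and LIG1 by 0.41 ± 0.0351 (adjusted p = 4.56e-10) and 0.46 ± 0.0378 (adjusted p = 5.47e-10). RPA2 fell by 0.32 ± 0.0445 in hypoxia and 0.53 ± 0.0464 in normoxia, and CHAF1A by 0.29 ± 0.0383 and 0.43 ± 0.0408. POLE and LIG1 were thus lower with the hairpin and, as given above, higher in hypoxia. GINS4, on the other hand, was higher with the hairpin, at 50.8, 50.8 and 51.4 CPM in hypoxic shRIPOR3 against 36.5, 38.2 and 36.7 CPM in hypoxic shControl libraries, and at 45.5, 43.3 and 48.9 CPM against 33.8, 33.9 and 32.8 CPM in normoxia. The libraries were apart at both levels (0.46 ± 0.0419, adjusted p = 1.2e-09, and 0.46 ± 0.0488, adjusted p = 3.64e-08).

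By role, the hairpin went with lower mRNA for nucleotide supply, where RRM1, TYMS and TK1 fell at both oxygen levels and RRM2 passed at neither (-0.05 in hypoxia and 0.07 in normoxia). Both genes of flap and nick processing, FEN1 and LIG1, also fell at both levels. Licensing and helicase activation showed 6 members higher and 0 lower in hypoxia, and 1 higher and 3 lower in normoxia. The 6 helicase subunits gave 3 higher and 0 lower in hypoxia, MCM2 (0.35 ± 0.0417, adjusted p = 9.19e-08), MCM7 and MCM5, and 0 higher and 2 lower in normoxia, MCM5 (-0.29 ± 0.0404, adjusted p = 1.99e-06) and MCM6. MCM5 was the only member called in opposite directions at the 2 oxygen levels. Among polymerase, primase and loader genes POLD2 (0.37 ± 0.0381, adjusted p = 8.16e-09), PRIM2 (0.44 ± 0.0514, adjusted p = 7.49e-08) and RFC5 (0.36 ± 0.0419, adjusted p = 8.44e-08) rose in hypoxia, whereas RFC1 fell by 0.25 ± 0.038 (adjusted p = 3.93e-06).

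In normoxia the smaller increases were less secure. RFC3 rose by 0.26 ± 0.0435 (adjusted p = 2.56e-05), and RFC4 (0.12 ± 0.0374, adjusted p = 0.0124), PRIM2 (0.15 ± 0.0529, adjusted p = 0.022), POLD2 (0.10 ± 0.0394, adjusted p = 0.0407) and RFC2 (0.15, adjusted p = 0.0438) passed by little. Those 4 each lost their call when single libraries were left out: without normoxic shRIPOR3 replicate 3, and likewise without hypoxic shControl replicate 2, 3 members were called higher in place of 7. Without normoxic shRIPOR3 replicate 2 or normoxic shControl replicate 3 there were 4. The calls of CDC6 and E2F8 in normoxia each ended without any 1 of 3 libraries, and that of ORC1 in hypoxia ended without hypoxic shControl replicate 1. E2F1 (0.10 in hypoxia and 0.00 in normoxia), PCNA (-0.02 and -0.03), CHAF1B and POLA1 passed at neither level.

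**Figure D4:**
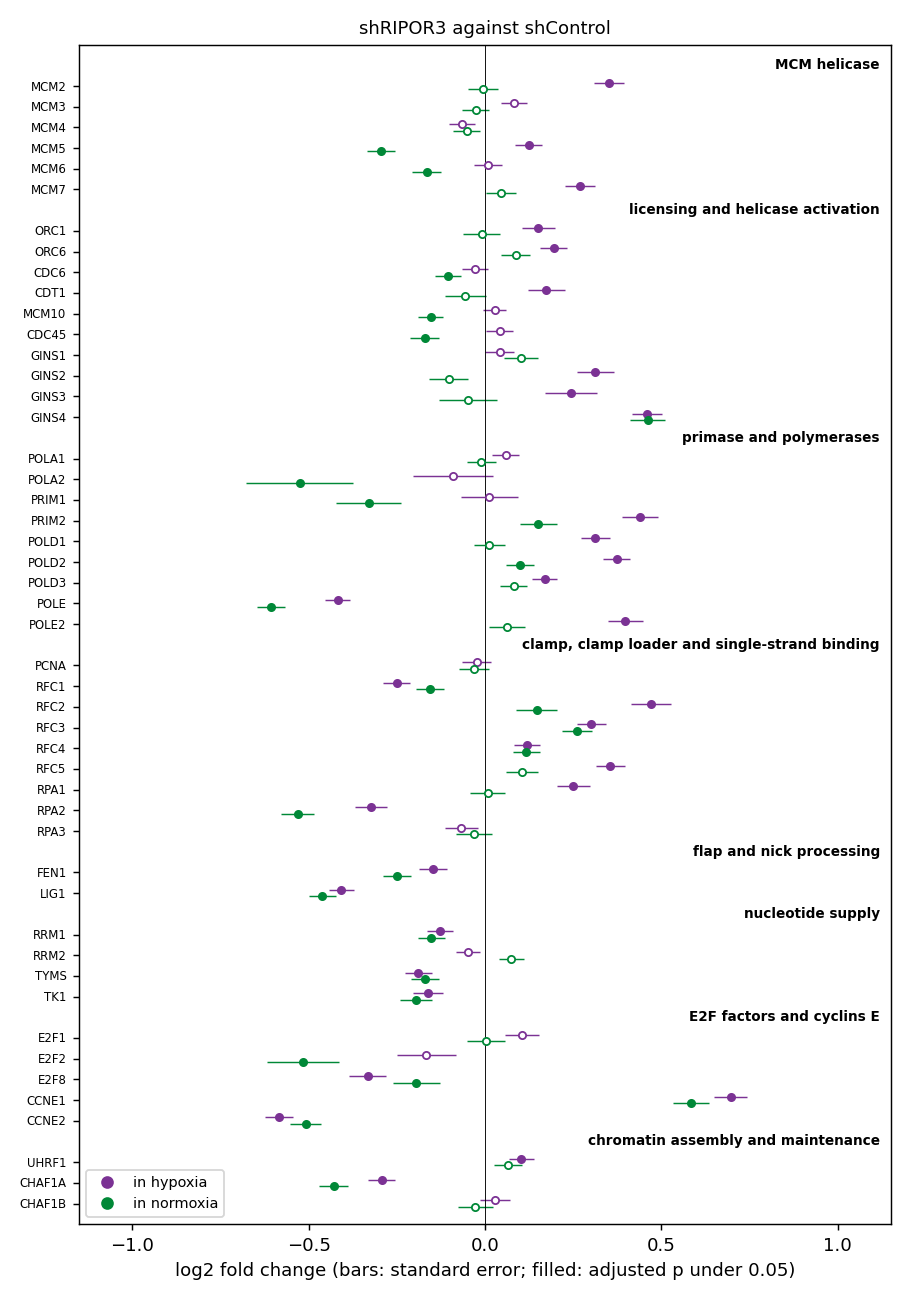
Log2 fold change of shRIPOR3 against shControl (horizontal axis) for each member, grouped by role, in hypoxia (purple) and normoxia (green); bars are standard errors and filled points passed an adjusted p of 0.05. CCNE1 lies farthest right and CCNE2, POLE, LIG1 and RPA2 lie left of 0 at both oxygen levels.

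The hairpin comparisons in hypoxia and in normoxia also use separate libraries. Of the 48 members 34 had the same sign in both, beside 11951 of all 15648 tested genes. Called in both were 19 members, 7 of them higher and 11 lower in both. Of all tested genes 5826 were called in both, 2954 of them higher and 2600 lower in both. The Pearson r across members was 0.826, beside 0.693 across all tested genes. The shRIPOR3 libraries were all above the shControl libraries for 23 members in hypoxia and 11 in normoxia and all below for 13 and 20, while 66.0% and 51.8% of all tested genes were apart in one direction or the other. Of the 65 other genes of replication, 21 rose and 22 fell in hypoxia, beside 30.7% and 31.2% of all tested genes (61.9% together). In normoxia 15 rose and 20 fell, beside 25.1% and 20.6% (45.7% together). CDC25A, a phosphatase that activates the cyclin E kinase, rose by 0.66 and 0.47, and TIMELESS, the partner of TIPIN, fell by 0.71 and 0.67. SAMHD1 and E2F4 rose by 0.52 each and CDK6 fell by 0.83 in hypoxia, and DSCC1 fell by 0.44 in hypoxia and 0.75 in normoxia.

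The last question was whether hypoxia acted differently in the 2 lines. The interaction is the log2 change with hypoxia in shRIPOR3 less that in shControl. It was positive for 39 of 48 members and passed the threshold in 18, all positive, against 10.9% of all tested genes higher and 12.3% lower (23.2% together). The member median was 0.11 and that of all tested genes -0.02. Genes above 100 CPM had 0.04, beside 0.11 for 25 members, and those at 10 to 100 CPM 0.00, beside 0.10 for 20. At 10 CPM or more, genes up to 2960 bp had 0.07, beside 0.11 for members of that length. Genes up to 4959 bp had 0.02, beside 0.10. By rising GC content, cut at 43.1% and 52.0%, genes had -0.04, -0.01 and 0.10, beside 0.05, 0.11 and 0.22 for members. The part of abundance, length and GC content in the interaction was not tested. The count of members with a negative interaction past the threshold was 0 in edgeR and 0 in DESeq2, which called 19 positive. DESeq2 called 3078 of all 15648 tested genes, 55.7% of them positive. At an unadjusted p below 0.05 in edgeR the count of negative members was 1 (RRM2), beside 23 positive. The share of all tested genes under that rule was not counted. With an interaction of at least 0.5 on the log2 scale also asked for, 0 members were called, beside 1.09% of all tested genes higher and 3.94% lower (5.04% together).

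Called members came from 4 roles: 6 of 9 polymerase and primase genes, 4 of 6 helicase subunits, 4 of 10 licensing and activation genes, and 4 of 9 clamp, loader and single-strand binding genes. The other roles had 0. The smallest p belonged to MCM5 (0.42 ± 0.056, adjusted p = 7.93e-06), followed by MCM2 (0.36 ± 0.06, adjusted p = 0.000121), GINS2 (0.42 ± 0.0759, adjusted p = 0.000305), POLD1 (0.30 ± 0.0599, adjusted p = 0.00073), POLD2 (0.27 ± 0.0548, adjusted p = 0.000797) and POLE2 (0.34 ± 0.0716, adjusted p = 0.00139). Of the 18, 16 fell with hypoxia in shControl, and 13 of these fell in shRIPOR3 too, by less. MCM2, POLD1 and POLE rose in shRIPOR3, and MCM5 and CDT1 passed in neither direction there. UHRF1 (0.04), RRM1 (0.02), LIG1 (0.05), PCNA (0.01) and RFC4 (0.00), each called in the same direction in both lines, had interactions that did not pass, and their 95% intervals are in the plot of interactions. PRIM2 (0.29), RPA1 (0.24) and MCM6 (0.17) also fell in both lines and had interactions that passed.

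**Figure D5:**
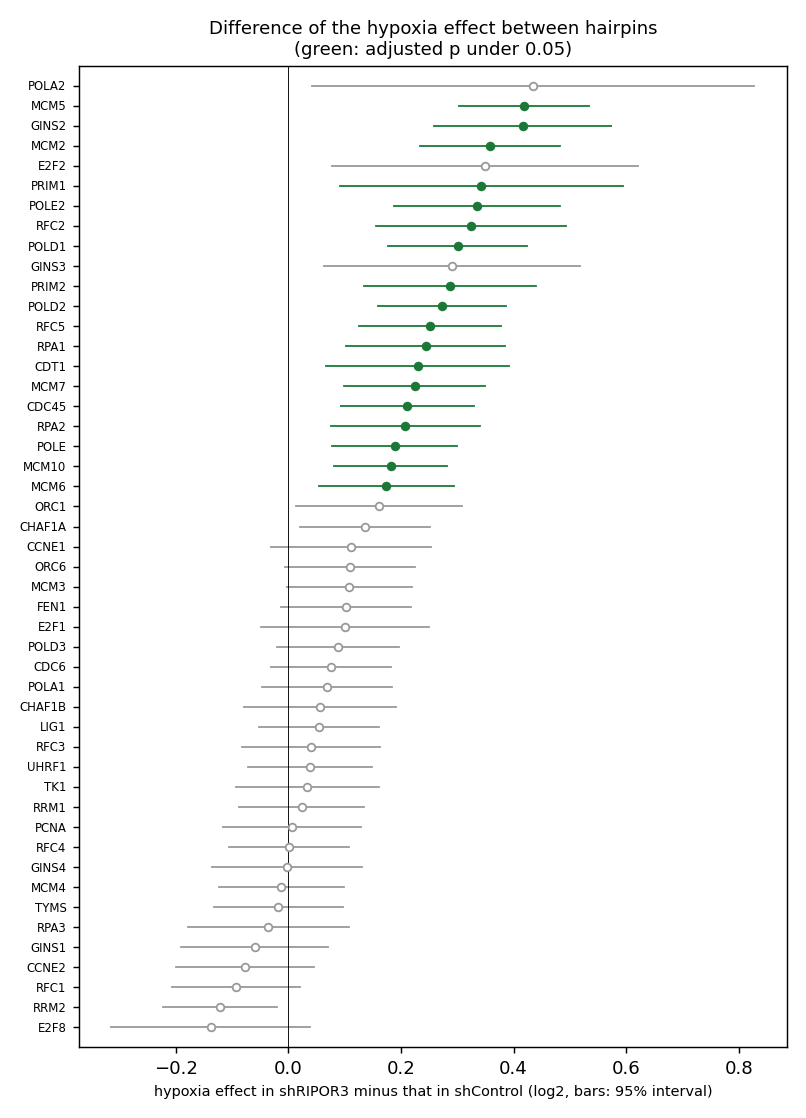
Interaction of each member (horizontal axis, log2 change with hypoxia in shRIPOR3 less that in shControl) in order of size, with 95% intervals; green filled points passed an adjusted p of 0.05. MCM5, GINS2 and MCM2 lie near 0.4 with intervals above 0, and POLA2, the scarcest member per kilobase, has the widest interval.

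Markers of the hypoxic response also changed less in shRIPOR3: NDRG1 rose by 2.75 in shRIPOR3 and 3.56 in shControl, and VEGFA by 1.01 and 1.71, with interactions of -0.81 and -0.70. CA9, the third marker listed for this check, averaged 1.49 CPM in hypoxic and 0.0373 CPM in normoxic shRIPOR3 cells. In shControl cells it averaged 15.6 CPM in hypoxia and 0.135 CPM in normoxia. The part of these markers in the members' interaction was not tested. Of the 65 other replication genes 15 had a positive and 5 a negative interaction past the threshold, beside 10.9% and 12.3% of all tested genes (23.2% together). They were led by SAMHD1 (0.37), CDK4 (0.40) and DSCC1 (0.30) above 0 and E2F7 (-0.43), TFDP2 (-0.46) and RBL2 (-0.37) below it. Of the 18 members called 11 kept their call in all 22 alternative settings. The calls of MCM6 and PRIM1 were each lost without any 1 of 7 libraries, that of CDT1 without any 1 of 6 and that of RPA2 without any 1 of 4, and that of PRIM1 also with replicate number as a block and in DESeq2.

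Some members share exon bases with other genes, and the strand setting of the counting is not given, so their values are less certain. Same-strand overlaps took 35.1% of the exon bases of POLA2, 20.2% of RRM2 and 14.9% of PRIM1, with genes whose symbols are absent from the counts. Opposite-strand overlaps took 39.1% of TYMS (ENOSF1), 22.7% of MCM2 and 21.2% of GINS4. The partner of MCM2 in that overlap is absent from the counts as well, and that of GINS4 averaged 0.0596 CPM. PCNA and PRIM2 are known to have pseudogene copies, and how reads that matched several places were treated is not given in the sources used here.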

How the data were processed

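The authors deposited raw counts per gene symbol for 12 mRNA libraries. Per the submitters' processing notes, fastp 0.23.4, STAR 2.5.3a, featureCounts and GRCh38 were used, with no role or order named; per the labels' protocols, libraries came from a stranded kit. The sources used here do not give the annotation or strand setting. The 24 symbols turned into dates (0.2% of counts) stayed in the library totals. Samples were grouped by the hairpin in their titles and the oxygen treatment in their labels.

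All 12 libraries were fitted together with edgeR 4.0.16 under R 4.3.3, with 1 coefficient per group, TMM factors (0.952 to 1.05) and filterByExpr. Quasi-likelihood F-tests were adjusted by Benjamini and Hochberg over 15648 genes, and calls use 0.05. The biological coefficient of variation was 3.74%. Replicates differed by more than sampling noise (chi-square per degree of freedom 2.49 to 5.62). Gene coordinates and exon lengths come from GENCODE 29 (GRCh38). Alternatives were DESeq2 1.42.0, other scalings, filters, thinning, a threshold of 0.01, a replicate block, only the groups compared and leaving out each library.

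On simulated counts of 15648 genes, 200 of them changed, the fit recovered 100% of the 2-fold changes in every comparison. Of the 1.25-fold changes it recovered 80% in the interaction and 96% to 100% elsewhere. False calls made up 2.45% to 6.76% of all calls in the simulated counts. In the data 23.2% to 64.8% of tested genes were called by comparison, a far larger share than was changed in the simulation. The simulation therefore does not give the share of false calls in the data, or the error of scaling there.

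By rule all 48 members may be named; the 6 smallest p-values each way per comparison get statistics, the first 2 of these with MCM2, CDC6, PCNA, RRM2, E2F1 and CCNE2 get library values, and other replication genes the 3 smallest each way. POLE2 was added to the library values after its values were seen, for the pairing with POLE. The members and gene lists were chosen with earlier results of these data known. Promoters were searched and figures drawn in Python 3.11.15 with pandas 2.3.3 and matplotlib 3.10.9.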

Additional observations from a re-analysis of the deposited data

Results flagged for a closer look

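The change with hypoxia differed between shRIPOR3 and shControl cells in 18 members by the interaction test of edgeR (adjusted p below 0.05). The differences, on the log2 scale as shRIPOR3 less shControl, were 0.36 for MCM2, 0.42 for MCM5, 0.17 for MCM6, 0.22 for MCM7, 0.23 for CDT1, 0.18 for MCM10, 0.21 for CDC45 and 0.42 for GINS2. Among polymerase and primase genes they were 0.34 for PRIM1, 0.29 for PRIM2, 0.30 for POLD1, 0.27 for POLD2, 0.19 for POLE and 0.34 for POLE2. Among loader and single-strand binding genes they were 0.32 for RFC2, 0.25 for RFC5, 0.24 for RPA1 and 0.21 for RPA2. Groups of 3 libraries are too small for a search for outlying libraries.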

How the results depend on the processing

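Of 330 summary counts recomputed, 320 stayed within 1.5 times the reported count. Of 1188 values of the members that the naming rule picked in each comparison, 1159 kept direction and call, 29 lost the call (RFC4, PRIM2 and POLD2 in shRIPOR3 against shControl in normoxia) and 0 reversed. That rule took the smallest p in these data, which favours stable values. Of all members called with hypoxia, 25 of 43 in shRIPOR3 and 35 of 44 in shControl kept the call in all 22 settings. In each of these comparisons 2 changed sign somewhere. With the hairpin 27 of 32 in hypoxia and 19 of 26 in normoxia kept it, and 11 of 18 in the interaction. On library totals without scaling factors 19 members fell with hypoxia in shRIPOR3, not 32. There 8644 of 15648 genes were called, 63.4% of them higher, and the median of all genes had moved by the scaling itself. At an adjusted p of 0.01, 7 members rose with hypoxia in shRIPOR3, where 7170 of 15648 tested genes were called, 43.7% of them higher. With the hairpin in normoxia 3 members rose at that threshold, where 5516 genes were called, 54.0% of them higher. In the interaction 2185 genes passed it, beside 3624 at 0.05. Members called higher with the hairpin in normoxia were 4 with only the groups compared, where 6781 of 14172 genes were called, 48.2% of them higher. In DESeq2 they were 4, where 6463 of 15648 genes were called, 53.3% of them higher. When 1 library was left out they were 3 to 7, with 6286 to 7157 genes called. The cause was not tested. With 1 library left out, members that rose and fell with hypoxia numbered 8 to 11 and 24 to 32 in shRIPOR3 and 6 to 7 and 34 to 37 in shControl, and 15 to 23 had a positive interaction. Same-numbered libraries of different groups shared little deviation (median correlation of same-numbered deviations -0.00493, from -0.149 to 0.139 over 18 pairs). Deviations within groups of 3 libraries cannot show whether same-numbered libraries were grown together, and no label says so. With a replicate block 31 and 36 members fell with hypoxia in shRIPOR3 and shControl. With that block 18 had a positive interaction and the other counts of members did not change. Depth limits POLA2, E2F2 and PRIM1 most, all below 10 CPM.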

Other observations

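Other words were searched in the 40 member promoters, on both strands. CCAAT, the box bound by NF-Y, was in 57.5% of them, against 37.0% of the promoters of tested genes. ACGTG or GCGTG, the core of the hypoxia response element, was in 70.0%, against 62.8%. TTTGAA, found in promoters of genes expressed late in the cell cycle, was in 1 of 40 (2.5%), against 9.70%; that member was RRM1. Members with and without the hypoxia word had median log2 fold changes with hypoxia of -0.18 and -0.16 in shRIPOR3 and -0.31 and -0.32 in shControl.

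The smallest libraries sat slightly low for these genes. In normoxic shControl replicate 2 the members' median deviation from the group mean was -0.0276 on the log2 scale, with 18 of 48 above that mean. In normoxic shRIPOR3 replicate 1 it was -0.0243, with 11 of 48 above it.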
